A study of Mus musculus with 27 samples.

Results

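Potassium channel genes, here all genes whose symbol in the probe annotation starts with Kcn, were followed in mouse hearts after pressure overload and after treatment with JQ1. The rule gave 92 genes of the 19937 measured (0.461%), each read by the probe set with the highest mean. A gene was called well expressed when its mean over all 27 arrays was above 8 on the log2 scale, which 13 of the 92 genes (14.1%) and 7445 of all genes (37.3%) were. The hearts came from C57Bl/6J male littermates aged 10 to 12 weeks, in 9 groups of 3 arrays each. At days 3, 11 and 28 after surgery there was 1 group with sham surgery and vehicle (dmso), 1 with transverse aortic constriction (TAC) and vehicle, and 1 with TAC and JQ1, an inhibitor of BET bromodomain proteins. The constriction was made with a silk suture around the aortic arch and gave a pressure gradient of about 50 mmHg, and injections of vehicle or JQ1 began 1.5 days after it. RNA was taken from a piece of 10 to 20 mg of heart tissue, and the labels do not say from which chamber. No group had sham surgery with JQ1, so that every JQ1 effect is an effect in hearts with TAC. The labels do not say that the arrays of a group come from separate animals, so that p-values cover the spread among these arrays alone, which may be technical. The number of arrays limits the precision of every value below.

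Potassium channels let potassium leave the cardiomyocyte and so set its resting potential and end its action potential. Voltage-gated (Kv) channels carry the transient outward and delayed rectifier currents, inward rectifiers (Kir) hold the resting potential and answer to acetylcholine or to the ATP level, 2-pore channels carry background current, and calcium-activated channels couple potassium flow to calcium. The pore subunits work with accessory subunits that change their gating or bring them to the membrane. Loss of repolarizing potassium currents and a longer action potential are well-known features of the hypertrophied and failing heart.

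Channels built from the products of more than 1 gene recur in the results below. Kcnd2 encodes the pore subunit Kv4.2 of the fast transient outward channel and Kcnip2 its cytosolic partner KChIP2, while Kcnj3 and Kcnj5 encode the subunits GIRK1 and GIRK4 of the acetylcholine-gated channel. All of these genes fell with TAC at every day, and at days 11 and 28 the GIRK genes then moved in opposite directions with JQ1. Their promoters are shown so that the partners can be set side by side, as 300 bases from 250 before to 50 after the start site, 5′ to 3′ on the gene's strand, from RefSeq annotation of GRCm38.p6. The positions are chr6:21215096-21215395 on the plus strand for Kcnd2, chr19:45816014-45816313 on the minus strand for Kcnip2, chr2:55435720-55436019 on the plus strand for Kcnj3 and chr9:32344295-32344594 on the minus strand for Kcnj5. Capitals mark GGGCGG on either strand, the core of the sites bound by SP and KLF factors.
Kcnd2: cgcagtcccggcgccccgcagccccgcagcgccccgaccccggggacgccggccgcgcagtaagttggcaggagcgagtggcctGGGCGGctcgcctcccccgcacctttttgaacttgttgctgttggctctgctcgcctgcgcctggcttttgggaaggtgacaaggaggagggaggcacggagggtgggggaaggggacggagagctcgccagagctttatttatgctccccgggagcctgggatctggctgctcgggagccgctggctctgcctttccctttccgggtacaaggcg
Kcnip2: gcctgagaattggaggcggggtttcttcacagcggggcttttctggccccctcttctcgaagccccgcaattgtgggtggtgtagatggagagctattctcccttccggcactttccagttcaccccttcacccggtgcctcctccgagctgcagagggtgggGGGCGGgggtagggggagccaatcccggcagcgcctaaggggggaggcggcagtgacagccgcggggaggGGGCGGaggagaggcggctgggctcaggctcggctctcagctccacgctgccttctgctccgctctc
Kcnj3: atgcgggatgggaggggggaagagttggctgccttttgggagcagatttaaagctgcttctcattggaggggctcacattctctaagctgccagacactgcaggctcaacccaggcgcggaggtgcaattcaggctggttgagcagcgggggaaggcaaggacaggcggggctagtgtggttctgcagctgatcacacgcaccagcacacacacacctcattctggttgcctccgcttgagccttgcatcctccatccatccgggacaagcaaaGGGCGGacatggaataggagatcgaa
Kcnj5: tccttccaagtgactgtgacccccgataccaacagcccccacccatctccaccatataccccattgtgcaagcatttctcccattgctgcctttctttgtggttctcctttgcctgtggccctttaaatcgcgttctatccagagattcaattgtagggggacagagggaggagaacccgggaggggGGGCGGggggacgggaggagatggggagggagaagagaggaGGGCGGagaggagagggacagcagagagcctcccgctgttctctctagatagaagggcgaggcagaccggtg
The letters GGGCGG occur 1 time in the windows of Kcnd2 and Kcnj3 and 2 times in those of Kcnip2 and Kcnj5. They are found in 35.7% of all 32851 promoters of this length in the table and in 47.4% of the 95 that belong to potassium channel genes (70 of the 92 genes had at least 1). The GC content was 68.7% for Kcnd2, 67.0% for Kcnip2, 57.7% for Kcnj3 and 58.3% for Kcnj5, against a median of 52.7% over all promoters and 58.0% over those of the potassium channel genes. None of the windows holds TATAAA on either strand, which occurs in 13.6% of all promoters. Each match is a description of the letters in the window only.

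The 13 well expressed genes came from 6 of the 7 channel groups. They were the inward rectifier genes Kcnj8, Kcnj3, Kcnj5, Kcnj11 and Kcnj2 (5 of 15), the 2-pore genes Kcnk3 and Kcnk6 (2 of 14), the modifier genes Kcng2 and Kcng1 (2 of 10), the delayed rectifier genes Kcnq1 and Kcnh2 (2 of 10 Kcnq and Kcnh genes), the Kv pore gene Kcnd2 (1 of 15) and the accessory gene Kcnip2 (1 of 12). Of the 12 genes of calcium-activated or sodium-activated channels 0 reached a mean of 8, and the other 4 symbols, which are antisense or regulator genes, did not either. Just inside the threshold lay Kcng1 with a mean of 8.10 and Kcnk6 with 8.25, and just outside it Kcnd3 with 7.98 and Kcnt2 with 7.90. This mean takes in the TAC and JQ1 arrays, and Kcnd3 and Kcnv2, both below it, lay above 8 in every sham array. Levels are signals of different probe sets, so that their order is not an order of transcript amounts.

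**Figure D1:**
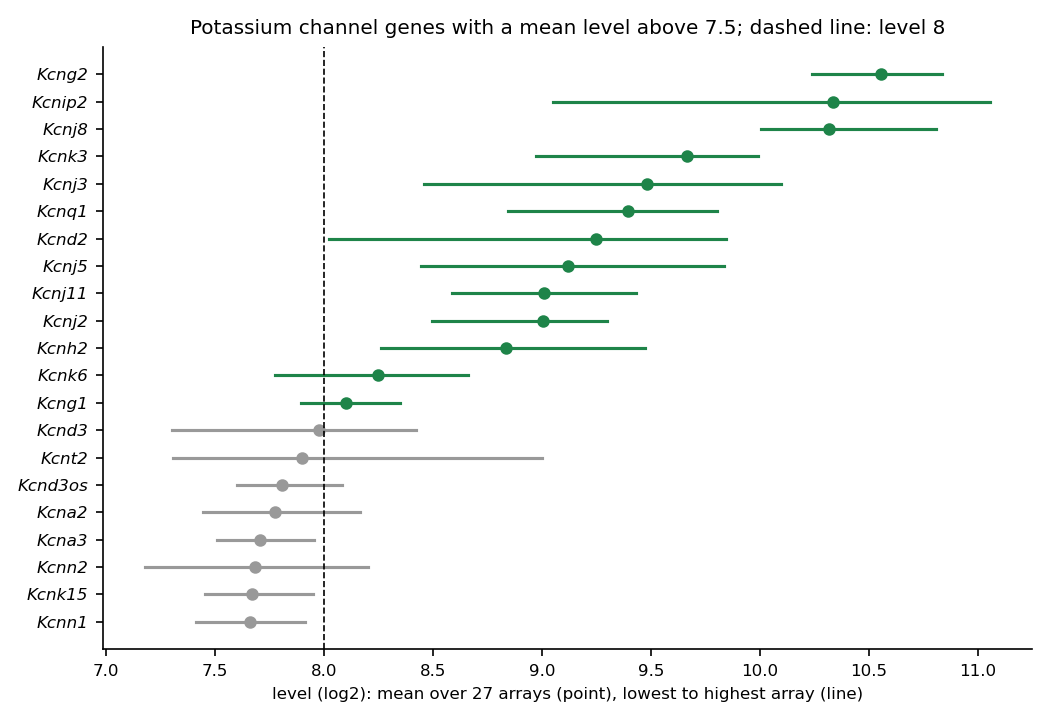
Mean level (point) and the range from the lowest to the highest of the 27 arrays (line), on the log2 scale, for the 21 potassium channel genes with a mean above 7.5. The 13 genes above the dashed line at 8 are green, and Kcnip2, Kcnd2 and Kcnj3 have the widest ranges among them.

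TAC lowered potassium channel genes far more often than it raised them. With vehicle, 7 of the 92 genes were called lower than sham at day 3 and 0 higher (limma, adjusted p under 0.05 over all genes), 16 lower and 0 higher at day 11, and 17 lower and 3 higher at day 28. Of all genes 7.55% were called in either direction at day 3, 15.5% at day 11 and 15.1% at day 28, and of the potassium channel genes 7.61%, 17.4% and 21.7%, which is close to the share of all genes at days 3 and 11. Over all genes the directions were nearly even, with 3.33%, 7.73% and 6.98% of all genes called lower and 4.22%, 7.8% and 8.13% called higher. All 3 TAC arrays lay below all 3 sham arrays for 13, 22 and 32 potassium channel genes at the 3 days (11.9%, 16.6% and 21.1% of all genes), and above them for 4, 4 and 5 (9.7%, 16.8% and 16.6% of all genes). Among the 13 well expressed genes 5, 9 and 9 were called lower at the 3 days and 0, 0 and 1 (Kcnk6) higher, beside calls in either direction for 13.3%, 28.2% and 26.6% of all genes with a mean above 8. The median change of these 13 was −0.18, −0.52 and −0.57, against −0.03, 0.01 and −0.05 over all genes and −0.07, 0.02 and −0.13 over the other 79 potassium channel genes. In RNA of whole tissue, fewer cells of a type and less RNA per cell cannot be told apart.

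The calls at day 3 rested on single arrays more than those of the later days. Without any 1 array of the groups compared 2 of the 7 calls at day 3 were kept (Kcnv2 and Kcnj5), 13 of 16 at day 11 and 14 of 20 at day 28. Under every alternative 1 (Kcnv2), 12 and 14 were kept. At day 3 a fit to the 2 groups compared only kept Kcnv2 and Kcnd2 and lost Kcnip2, Kcnj2, Kcnj3, Kcnj5 and Kcnn2 (adjusted p = 0.06 to 0.138), at day 11 it lost Kcna2, Kcng2 and Kcnn1 and at day 28 Kcna7, Kcnma1, Kcnn1 and Kcnn2. The count at day 3 was 2 without TAC replicate 2, 3 without sham replicate 3 and 4 without sham replicate 1 or 2. On the mean of the 3 days 19 genes were lower and 5 higher (of all genes 25.9% were called, 13% in the higher and 12.9% in the lower direction), and 20 of these 24 calls were kept without each array. Called at every day, and lower each time, were 7 of the 92 genes, beside 1.49% of all genes: Kcnd2, Kcnip2, Kcnv2, Kcnj2, Kcnj3, Kcnj5 and Kcnn2. These include the calls of day 3 that were lost under alternatives.

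With JQ1 potassium channel genes were called in both directions, at shares near those of all genes. Compared with TAC vehicle, 2 genes were called higher and 8 lower at day 3, 6 higher and 5 lower at day 11, and 9 higher and 11 lower at day 28 (10.9%, 12% and 21.7% of them, beside 11.9%, 16% and 19.6% of all genes called). Called higher were 4.28%, 7.52% and 7.16% of all genes and called lower 7.61%, 8.43% and 12.4%. Of the 13 well expressed genes 1 was higher and 5 were lower at day 3, 5 higher and 2 lower at day 11, and 2 higher and 5 lower at day 28, beside calls for 17.9%, 25.9% and 29.2% of all genes with a mean above 8. Their median JQ1 difference was −0.24, 0.11 and −0.13 at the 3 days. After a further quantile normalization the split was 3 higher and 5 lower at day 11 and 6 higher and 13 lower at day 28. Of these calls 4 of 10, 5 of 11 and 10 of 20 were kept without each array, and 1, 5 and 8 under every alternative. At day 3 a fit to the 2 groups compared only kept the call of Kcnj5 alone and lost the other 9 (adjusted p = 0.0525 for Kcnk6 to 0.313 for Kcnv2), and at day 28 it lost 9 of 20, those of Kcnd3os, Kcne2, Kcnj11, Kcnj14, Kcnj15, Kcnk6, Kcnn2, Kcnq1 and Kcnrg. The count at day 3 was 5 without TAC replicate 1, 6 without TAC replicate 3 and 6 without TAC JQ1 replicate 1. At day 11 it was 5 without TAC JQ1 replicate 1, 6 without TAC replicate 2, and 7 without TAC replicate 1 or 3 or TAC JQ1 replicate 2, and at day 28 it was 13 without TAC replicate 3 or TAC JQ1 replicate 2. On the mean of the 3 days 8 were higher and 17 lower (of all genes 29.1% were called, 12.3% in the higher and 16.8% in the lower direction), and 20 of the 25 calls were kept without each array. Kcnj5, Kcnk6 and Kcnmb1 were called lower with JQ1 at every day (3.26% of the genes, beside 3.33% of all genes) and 0 genes higher at every day (1.37% of all genes). The comparisons of TAC with sham and of JQ1 with vehicle share the TAC vehicle arrays, so that the values of a gene in both are set side by side below and are not independent of each other.

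By subfamily, the calls of the mean TAC effect were spread as follows. Of the 15 Kv pore genes 7 were lower and 1 higher (Kcna4), of the 15 inward rectifier genes 5 lower and 0 higher, and of the 10 modifier genes 2 lower and 0 higher. Of the 12 accessory genes 1 was lower and 1 higher, of the 12 calcium-activated and sodium-activated channel genes 2 were lower and 2 higher, of the 14 2-pore genes 1 was lower and 1 higher, and of the 10 Kcnh and Kcnq genes 1 was lower and 0 higher. Over all genes the mean TAC effect was called lower for 12.9% and higher for 13%, and in either direction for 43.8% of those with a mean above 8, where it was called for 10 of the 13 well expressed potassium channel genes. With JQ1 the calls of the mean effect were 2 higher and 3 lower among inward rectifier genes, 2 and 2 among Kv pore genes, 2 and 1 among modifier genes, and 0 higher and 4 lower among accessory genes. Calcium-activated and sodium-activated channel genes had 3 lower, 2-pore genes 2 lower and Kcnh and Kcnq genes 2 lower, with 0 higher in each, and Kcnd3os and Kcnrg were higher. Over all genes 12.3% were called higher and 16.8% lower. Of the 13 well expressed genes 4 were higher and 6 lower (45.5% of all genes with a mean above 8 were called).

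**Figure D2:**
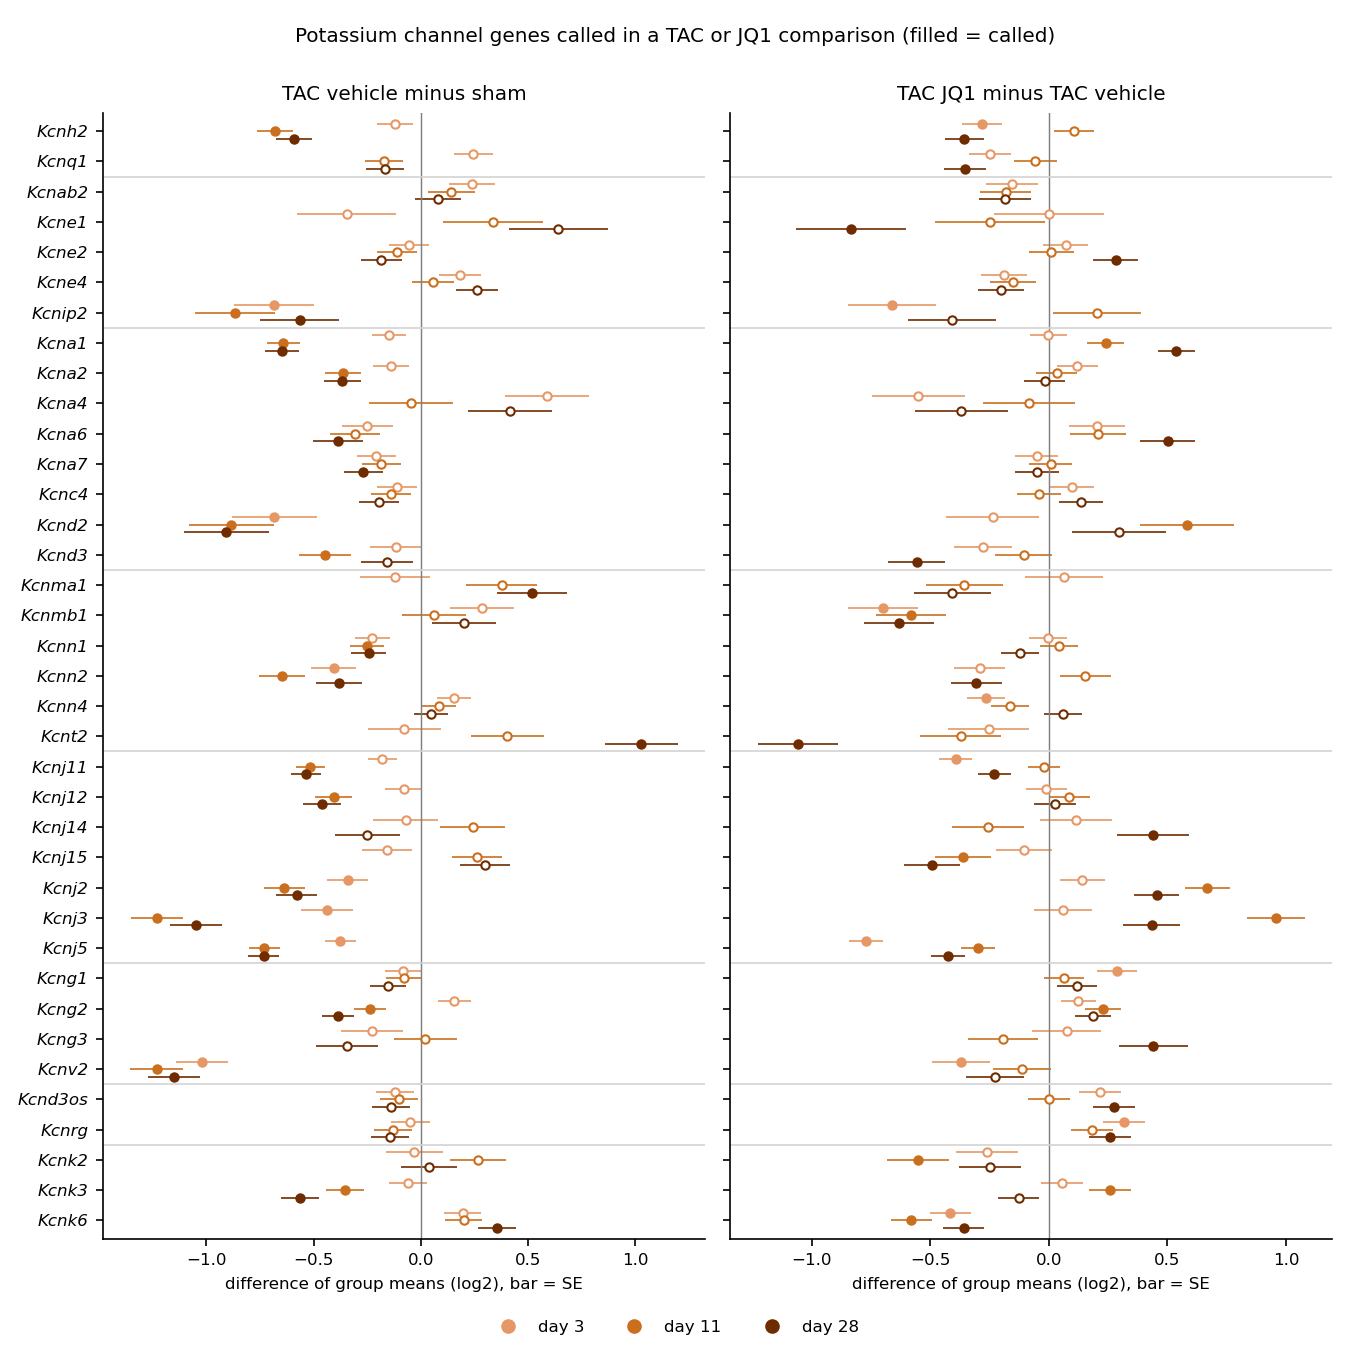
Difference of group means on the log2 scale, with its standard error, for the 37 genes called in a TAC or JQ1 comparison of a day or of the mean of 3 days, at days 3, 11 and 28 (light to dark). Filled points were called, and grey lines separate the channel groups. In the left panel (TAC vehicle minus sham) most filled points lie left of 0, and in the right panel (TAC JQ1 minus TAC vehicle) they lie on both sides.

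Across the 27 arrays the medians lay between 6.954 and 7.043, and arrays of a group correlated at 0.974 to 0.994. TAC JQ1 replicate 1 of day 3 had the lowest mean correlation with its own group (0.978), and its levels of Kcnd2, Kcnip2, Kcne1 and Kcnmb1 were the lowest of its group. Markers of cardiomyocytes (10 genes such as Myh6, Tnnt2 and Ryr2) had group means of 13.3 to 13.4 in all 9 groups, which bears out the labelled tissue. Within that range some of them were called. With TAC 0, 1 and 2 of the 10 were lower at days 3, 11 and 28 (3.33%, 7.73% and 6.98% of all genes) and 0 higher (4.22%, 7.8% and 8.13%). On the mean of 3 days 4 of these markers were lower (Myh6, Ryr2, Tnni3 and Pln) and 1 higher (Tnnc1), beside 12.9% and 13% of all genes. Their mean level in single arrays of day 28 was 13.41 to 13.43 in sham, 13.27 to 13.33 with TAC and 13.27 to 13.34 with TAC and JQ1. The largest of these falls was that of Ryr2 at day 28, by 0.45. With JQ1 Myh6 was called higher at day 11 (7.52% of all genes), Myh6 and Tnnt2 on the mean of 3 days (12.3%), and 0 lower. The part of these marker shifts in the results on channel genes was not tested. Of 6 atrial markers Sln, Myl7 and Bmp10 had group means of 5.35 to 5.67, 6.17 to 6.42 and 4.61 to 4.93 and were not called in any TAC or JQ1 comparison. The other 3 were called: Stard10 lower with TAC at every day, Dkk3 higher with TAC and lower with JQ1 at days 11 and 28, and Myl4 higher with JQ1 at day 3 and with both TAC and JQ1 on the mean of 3 days. The mean level of the whole list was 6.83 to 6.92 in the groups.

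Of the genes of the fast transient outward current, Kcnd2 and Kcnip2 fell together with TAC at every day. Kcnd2 went from a mean of 9.65 in sham hearts to 8.77 at day 11, and Kcnip2 from 10.92 to 10.06. Kcnd2 levels in sham hearts were 9.76, 9.80 and 9.58 at day 3, 9.63, 9.47 and 9.85 at day 11 and 9.82, 9.78 and 9.84 at day 28. Kcnd2 levels under TAC with vehicle were 9.08, 8.76 and 9.24 at day 3, 8.84, 8.67 and 8.78 at day 11 and 8.83, 8.96 and 8.92 at day 28. Kcnd2 levels under TAC with JQ1 were 8.02, 9.16 and 9.19 at day 3, 9.15, 9.61 and 9.29 at day 11 and 9.05, 9.33 and 9.21 at day 28. Every TAC vehicle array lay below every sham array of its day, and the lowest Kcnd2 level of all was in TAC JQ1 replicate 1 of day 3. With TAC Kcnd2 fell by 0.68 ± 0.20 at day 3, 0.88 ± 0.20 at day 11 and 0.91 ± 0.20 at day 28 (SE, n = 3 arrays per group, limma adjusted p = 0.0348, 0.00285 and 0.00252). The day 3 call was lost without sham replicate 1, 2 or 3 or TAC replicate 1 or 2 (adjusted p = 0.0515 to 0.258). With JQ1 the difference from TAC vehicle was −0.24 ± 0.20 at day 3, 0.58 ± 0.20 at day 11 and 0.30 ± 0.20 at day 28, of which that at day 11 was called (adjusted p = 0.0473) and lost its call without any 1 of the 6 arrays (0.0532 to 0.214).

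Kcnip2 levels in sham hearts were 11.00, 10.81 and 10.92 at day 3, 10.96, 10.87 and 10.93 at day 11 and 10.71, 10.88 and 11.06 at day 28. Kcnip2 levels under TAC with vehicle were 10.57, 9.67 and 10.43 at day 3, 10.13, 10.14 and 9.90 at day 11 and 10.33, 10.40 and 10.22 at day 28. Kcnip2 levels under TAC with JQ1 were 9.05, 9.86 and 9.78 at day 3, 10.23, 10.25 and 10.30 at day 11 and 9.71, 9.84 and 10.18 at day 28. The sham and TAC vehicle arrays did not overlap at any day, and TAC replicate 2 of day 3 stood apart below the other TAC arrays of that day. Kcnip2 fell by 0.69 ± 0.19, 0.87 ± 0.19 and 0.57 ± 0.19 at days 3, 11 and 28 (adjusted p = 0.024, 0.00198 and 0.0409). Its call at day 3 was lost without sham replicate 1 or 3 or TAC replicate 2 (0.0758 to 0.284) and that at day 28 without any of the arrays except sham replicate 1 (0.0597 to 0.152). JQ1 lowered Kcnip2 further at day 3, by 0.66 ± 0.19 (adjusted p = 0.0214), and was not called without TAC replicate 1 or 3 or TAC JQ1 replicate 1 (0.0996 to 0.192). At day 11 the JQ1 difference was 0.20 ± 0.19 and at day 28 −0.41 ± 0.19, neither of them called.

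Kcnd3 encodes Kv4.3, the other pore subunit of the fast transient outward channel. Kcnd3 levels in sham hearts were 8.34, 8.11 and 8.10 at day 3, 8.42, 8.23 and 8.38 at day 11 and 8.2, 8.10 and 8.28 at day 28. Kcnd3 levels under TAC with vehicle were 8.12, 8.03 and 8.05 at day 3, 7.86, 7.78 and 8.06 at day 11 and 8.0, 8.12 and 7.98 at day 28. Kcnd3 levels under TAC with JQ1 were 8.19, 7.62 and 7.56 at day 3, 7.89, 7.73 and 7.77 at day 11 and 7.30, 7.61 and 7.52 at day 28. The TAC vehicle arrays lay below sham at day 11 only, and at day 28 the JQ1 arrays lay below both other groups. Kcnd3 fell with TAC at day 11 by 0.45 ± 0.12 (adjusted p = 0.0121, lost without sham replicate 1 or TAC replicate 2 at 0.06 to 0.0666), while the change was −0.12 ± 0.12 at day 3 and −0.16 ± 0.12 at day 28. With JQ1 it fell at day 28 by 0.56 ± 0.12 (adjusted p = 0.00188). Kcnd3os, named as the opposite strand of Kcnd3, rose with JQ1 on that day by 0.27 ± 0.09 (adjusted p = 0.0323), not called without TAC replicate 2 or 3 or TAC JQ1 replicate 1 or 2 (0.0582 to 0.179), and by 0.16 ± 0.05 on the mean of 3 days. Kcnd3os levels in sham hearts were 7.60, 7.98 and 7.88 at day 3, 7.90, 7.97 and 7.74 at day 11 and 7.85, 7.76 and 7.81 at day 28. Kcnd3os levels under TAC with vehicle were 7.73, 7.67 and 7.70 at day 3, 7.73, 7.91 and 7.67 at day 11 and 7.72, 7.66 and 7.63 at day 28. Kcnd3os levels under TAC with JQ1 were 7.89, 7.95 and 7.91 at day 3, 7.67, 7.76 and 7.88 at day 11 and 7.92, 8.08 and 7.83 at day 28. The JQ1 arrays of Kcnd3os lay above TAC vehicle at days 3 and 28 and overlapped them at day 11.

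Kcna4 encodes Kv1.4, the pore of the slow transient outward channel. Kcna4 levels in sham hearts were 6.44, 5.72 and 6.73 at day 3, 6.81, 6.38 and 6.59 at day 11 and 6.31, 6.31 and 6.46 at day 28. Kcna4 levels under TAC with vehicle were 6.97, 7.09 and 6.59 at day 3, 6.33, 6.58 and 6.74 at day 11 and 6.65, 6.57 and 7.10 at day 28. Kcna4 levels under TAC with JQ1 were 5.97, 6.56 and 6.47 at day 3, 6.52, 6.43 and 6.44 at day 11 and 6.49, 6.40 and 6.32 at day 28. Sham replicate 2 of day 3 was the lowest array of Kcna4. On the mean of 3 days Kcna4 was higher with TAC by 0.32 ± 0.11 (adjusted p = 0.039) and lower with JQ1 by 0.33 ± 0.11 (0.0275). The first call was lost without 10 of the 18 arrays (0.0555 to 0.0991) and the second without TAC replicate 2 or TAC JQ1 replicate 1 of day 3, TAC replicate 3 of day 11 or TAC replicate 3 of day 28 (0.0598 to 0.0707), and no single day was called.

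**Figure D3:**
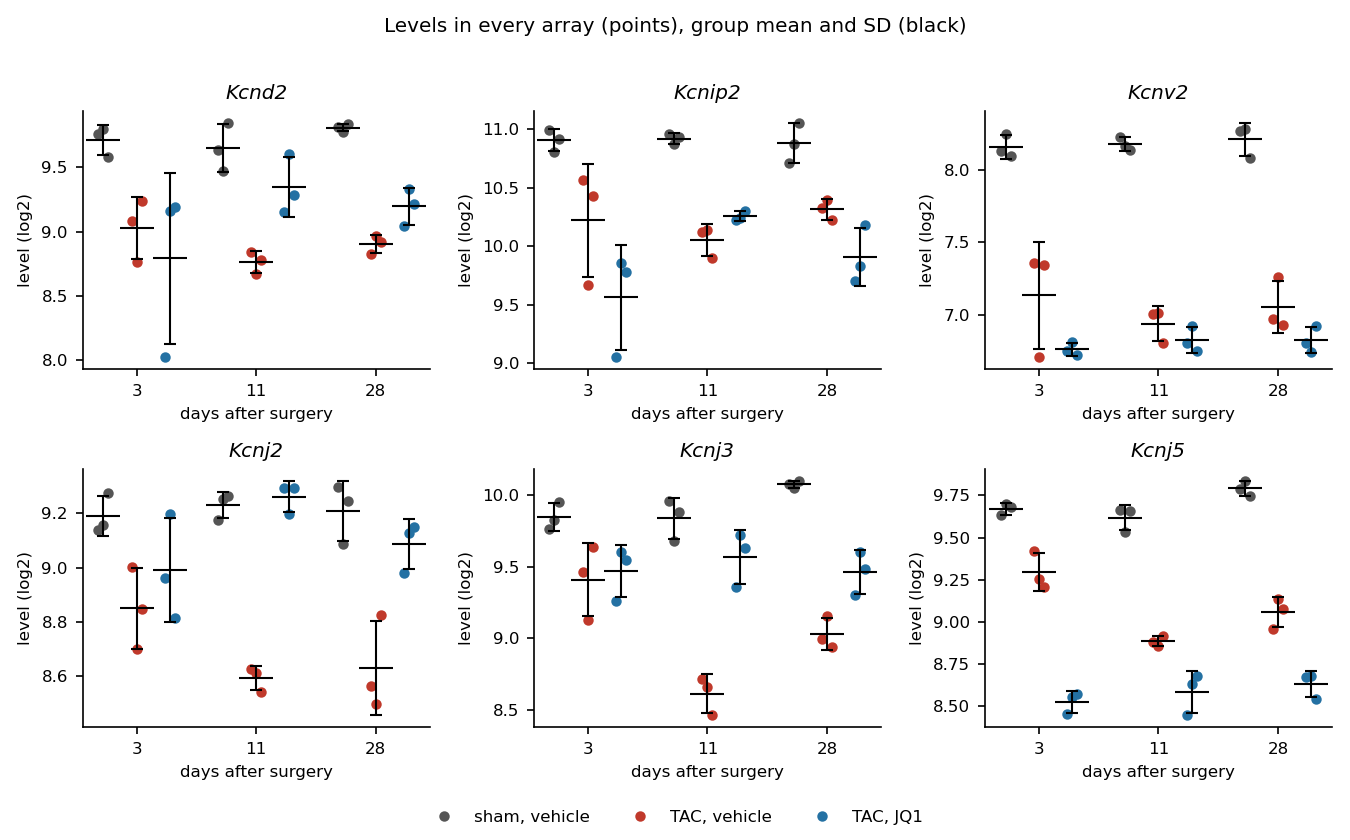
Levels on the log2 scale in every array (points), with the group mean and SD (black), for the transient outward genes Kcnd2 and Kcnip2, the modifier gene Kcnv2, the inward rectifier gene Kcnj2 and the GIRK genes Kcnj3 and Kcnj5, by days after surgery. In each panel the TAC vehicle arrays (red) lie below the sham arrays (grey) of the same day, and the JQ1 arrays (blue) of days 11 and 28 lie above TAC vehicle for Kcnj2 and Kcnj3 and below it for Kcnj5.

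Kcnv2 had the largest fall with TAC among the potassium channel genes at every day, at day 11 by a margin far under its standard error over Kcnj3. It encodes Kv8.2, a subunit that forms no channel alone and modifies those of other Kv pores. Kcnv2 levels in sham hearts were 8.13, 8.25 and 8.09 at day 3, 8.23, 8.16 and 8.14 at day 11 and 8.26, 8.28 and 8.08 at day 28. Kcnv2 levels under TAC with vehicle were 7.35, 6.71 and 7.34 at day 3, 7.01, 7.01 and 6.80 at day 11 and 6.97, 7.26 and 6.93 at day 28. Kcnv2 levels under TAC with JQ1 were 6.75, 6.81 and 6.73 at day 3, 6.81, 6.92 and 6.75 at day 11 and 6.81, 6.75 and 6.92 at day 28. All 9 TAC vehicle arrays lay far below the lowest sham array of their day. The fall with TAC was 1.02 ± 0.12, 1.23 ± 0.12 and 1.15 ± 0.12 at days 3, 11 and 28 (adjusted p = 1.96e-05, 3.55e-07 and 1.16e-06), that is 2.03-fold, 2.35-fold and 2.22-fold lower, and all 3 calls were kept without each array. With JQ1 the difference of Kcnv2 from TAC vehicle was −0.37 ± 0.12 at day 3 (adjusted p = 0.0487), −0.11 ± 0.12 at day 11 and −0.23 ± 0.12 at day 28. The call at day 3 was lost without TAC replicate 1 or 3 or any JQ1 array (0.0734 to 0.248), and without TAC replicate 2, the lowest of its group, the difference was −0.58.

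Kcng2 encodes Kv6.2, which is silent alone too. Kcng2 levels in sham hearts were 10.37, 10.57 and 10.55 at day 3, 10.70, 10.59 and 10.57 at day 11 and 10.69, 10.69 and 10.70 at day 28. Kcng2 levels under TAC with vehicle were 10.61, 10.67 and 10.67 at day 3, 10.35, 10.36 and 10.44 at day 11 and 10.33, 10.34 and 10.24 at day 28. Kcng2 levels under TAC with JQ1 were 10.72, 10.84 and 10.78 at day 3, 10.60, 10.62 and 10.61 at day 11 and 10.29, 10.68 and 10.49 at day 28. The TAC arrays of Kcng2 lay above sham at day 3 and below it at days 11 and 28. Kcng2 fell with TAC by 0.39 ± 0.08 at day 28 (adjusted p = 0.000958) and by 0.24 ± 0.08 at day 11 (0.0351, lost without sham replicate 1 or 2 or TAC replicate 1 or 2 at 0.0604 to 0.162), against a change of 0.16 ± 0.08 at day 3. With JQ1 it was higher by 0.23 ± 0.08 at day 11 (adjusted p = 0.0422), a call lost without any array but TAC replicate 3 (0.0823 to 0.129), and by 0.18 ± 0.04 on the mean of 3 days (0.00266). Kcng1 (Kv6.1) rose with JQ1 at day 3 from 7.94, 8.06 and 7.97 to 8.26, 8.23 and 8.35, by 0.29 ± 0.08 (adjusted p = 0.0254), and was not called without TAC replicate 1 or 3 or TAC JQ1 replicate 1 or 3 (0.0592 to 0.0899). Kcng3 (Kv6.3) rose with JQ1 at day 28 from 5.84, 5.83 and 5.69 to 6.12, 6.46 and 6.10, by 0.44 ± 0.15 (adjusted p = 0.0363, lost without any TAC array or TAC JQ1 replicate 2 at 0.0597 to 0.197).

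Among the Kv1 pore genes Kcna1 (Kv1.1) and Kcna2 (Kv1.2) fell with TAC at days 11 and 28, and Kcna1 rose again with JQ1. Kcna1 levels in sham hearts were 7.40, 7.29 and 7.30 at day 3, 7.52, 7.35 and 7.43 at day 11 and 7.37, 7.27 and 7.28 at day 28. Kcna1 levels under TAC with vehicle were 7.12, 7.15 and 7.26 at day 3, 6.89, 6.79 and 6.70 at day 11 and 6.76, 6.70 and 6.51 at day 28. Kcna1 levels under TAC with JQ1 were 7.16, 7.24 and 7.13 at day 3, 7.06, 6.89 and 7.15 at day 11 and 7.25, 7.25 and 7.09 at day 28. The sham and TAC groups did not overlap at any day, and at day 28 the JQ1 arrays lay between the TAC vehicle and the sham arrays. Kcna1 fell by 0.64 ± 0.08 at day 11 and 0.65 ± 0.08 at day 28 (adjusted p = 5.59e-06 and 5.92e-06), and at day 3 the change was −0.15 ± 0.08 (0.325). With JQ1 it rose by 0.54 ± 0.08 at day 28 (3.32e-05) and by 0.24 ± 0.08 at day 11 (0.04, lost without TAC replicate 2 or 3 or TAC JQ1 replicate 1 or 3 at 0.104 to 0.165), and at day 3 the difference was 0.00 ± 0.08. Kcna2 fell with TAC by 0.36 ± 0.09 at day 11 and 0.37 ± 0.09 at day 28 (adjusted p = 0.00415 and 0.00436), and with JQ1 its differences were 0.12, 0.03 and −0.02. The second probe set of Kcna2 changed with TAC by −0.11 ± 0.09 at day 11 and −0.46 ± 0.09 at day 28 and with JQ1 by 0.40 ± 0.09 at day 28, where the first gave nearly no difference. With the mean of both probe sets the TAC change of day 11 was −0.24, still called.

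Kcna6 (Kv1.6) was called with TAC and with JQ1 at day 28, in opposite directions. Kcna6 levels in sham hearts were 6.60, 6.68 and 6.66 at day 3, 6.61, 6.76 and 6.69 at day 11 and 6.61, 6.75 and 6.65 at day 28. Kcna6 levels under TAC with vehicle were 6.57, 6.36 and 6.26 at day 3, 6.41, 6.52 and 6.22 at day 11 and 6.38, 6.16 and 6.31 at day 28. Kcna6 levels under TAC with JQ1 were 6.31, 6.69 and 6.80 at day 3, 6.63, 6.54 and 6.61 at day 11 and 6.88, 6.98 and 6.51 at day 28. At day 28 the TAC arrays lay below sham, and 2 of the 3 JQ1 arrays lay above every sham array. Kcna6 fell with TAC at day 28 by 0.39 ± 0.12 (adjusted p = 0.0256, lost without sham replicate 2 or 3 or TAC replicate 2 or 3 at 0.0577 to 0.108) and rose with JQ1 by 0.50 ± 0.12 (0.00361). Kcna7 (Kv1.7) fell with TAC at day 28 from 7.48, 7.35 and 7.16 to 7.08, 7.07 and 7.03 (adjusted p = 0.0492, lost without any array but sham replicate 3 at 0.0858 to 0.267). Kcnc4 (Kv3.4) was called on the mean of 3 days alone, at −0.15 ± 0.05 (0.0447, lost without 11 of the 18 arrays). Kcna5, the Kv1.5 pore of the ultrarapid delayed rectifier, was not called, with TAC changes of −0.06 ± 0.22, −0.05 ± 0.22 and 0.17 ± 0.22 and JQ1 differences of 0.33 ± 0.22, 0.09 ± 0.22 and 0.25 ± 0.22. Its arrays scattered widely: the TAC vehicle levels of day 28 were 7.18, 8.03 and 7.34. Kcnc1 (Kv3.1) was not called either, with changes between −0.15 and 0.07.

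Kcnh2 encodes ERG1, the pore of the rapid delayed rectifier, and it fell late after TAC. Kcnh2 levels in sham hearts were 9.11, 9.05 and 9.16 at day 3, 9.20, 9.09 and 9.09 at day 11 and 9.39, 9.47 and 9.27 at day 28. Kcnh2 levels under TAC with vehicle were 8.98, 8.89 and 9.08 at day 3, 8.54, 8.39 and 8.42 at day 11 and 8.80, 8.78 and 8.78 at day 28. Kcnh2 levels under TAC with JQ1 were 8.80, 8.70 and 8.61 at day 3, 8.55, 8.40 and 8.71 at day 11 and 8.26, 8.56 and 8.48 at day 28. The TAC arrays overlapped sham at day 3 and lay below it at days 11 and 28, and the 3 TAC arrays of day 28 were nearly equal. Kcnh2 fell with TAC by 0.68 ± 0.08 at day 11 and 0.59 ± 0.08 at day 28 (adjusted p = 5.59e-06 and 3.51e-05), against −0.12 ± 0.08 at day 3. JQ1 lowered it further at day 28, by 0.36 ± 0.08 (0.00382), and at day 3, by 0.28 ± 0.08 (0.0291, lost without TAC replicate 1 or 3 or TAC JQ1 replicate 2 or 3 at 0.0638 to 0.13), and the difference at day 11 was 0.11 ± 0.08, not called.

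Kcnq1 encodes the pore of the slow delayed rectifier and Kcne1 its accessory subunit minK. Kcnq1 levels in sham hearts were 9.45, 9.54 and 9.45 at day 3, 9.44, 9.40 and 9.46 at day 11 and 9.50, 9.60 and 9.57 at day 28. Kcnq1 levels under TAC with vehicle were 9.61, 9.81 and 9.75 at day 3, 9.28, 9.16 and 9.34 at day 11 and 9.44, 9.32 and 9.41 at day 28. Kcnq1 levels under TAC with JQ1 were 9.33, 9.65 and 9.44 at day 3, 9.13, 9.24 and 9.24 at day 11 and 8.84, 9.27 and 9.0 at day 28. At day 3 the TAC arrays lay above sham, at days 11 and 28 below it, and the 2 lowest arrays were replicates 1 and 3 with JQ1 at day 28. No TAC change of Kcnq1 was called (0.25 ± 0.09, −0.17 ± 0.09 and −0.17 ± 0.09), and with JQ1 it fell at day 28 by 0.35 ± 0.09 (adjusted p = 0.00662, and 0.057 without TAC JQ1 replicate 1).

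Kcne1 levels in sham hearts were 7.27, 7.74 and 7.37 at day 3, 7.25, 7.30 and 7.33 at day 11 and 7.10, 7.16 and 7.21 at day 28. Kcne1 levels under TAC with vehicle were 7.53, 6.78 and 7.03 at day 3, 7.54, 7.51 and 7.83 at day 11 and 7.70, 7.36 and 8.34 at day 28. Kcne1 levels under TAC with JQ1 were 6.40, 7.5 and 7.43 at day 3, 7.52, 7.25 and 7.37 at day 11 and 6.92, 6.97 and 6.99 at day 28. The TAC arrays of Kcne1 at day 28 spread widely, from 7.36 to 8.34, the JQ1 arrays of that day lay close together, and TAC JQ1 replicate 1 of day 3 was the lowest of all. Kcne1 fell with JQ1 at day 28 by 0.83 ± 0.23 (adjusted p = 0.0129, and 0.108 without TAC replicate 3), and its TAC change there was 0.64 ± 0.23 (0.0655). Kcne1 thus stood at 7.16 in sham, 7.80 with TAC and 6.96 with TAC and JQ1.

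The remaining accessory genes had small changes at dim signals. Kcne2, an accessory subunit of Kcnh2 and Kcnq1 channels, rose with JQ1 at day 28 by 0.28 ± 0.09 (adjusted p = 0.0377, lost without TAC replicate 2 or 3 or TAC JQ1 replicate 1 or 2 at 0.0744 to 0.247). Kcne2 levels in sham hearts were 6.35, 6.42 and 6.66 at day 3, 6.49, 6.51 and 6.41 at day 11 and 6.60, 6.41 and 6.43 at day 28. Kcne2 levels under TAC with vehicle were 6.35, 6.40 and 6.52 at day 3, 6.41, 6.31 and 6.36 at day 11 and 6.44, 6.20 and 6.24 at day 28. Kcne2 levels under TAC with JQ1 were 6.41, 6.47 and 6.60 at day 3, 6.31, 6.35 and 6.44 at day 11 and 6.57, 6.79 and 6.38 at day 28. The JQ1 arrays of day 28 overlapped the TAC arrays in spite of that call. Kcne4, which inhibits several Kv channels, was higher with TAC on the mean of 3 days by 0.17 ± 0.06 (adjusted p = 0.03, lost without 8 of the 18 arrays at 0.0508 to 0.0763) and lower with JQ1 by 0.18 ± 0.06 (0.0166). Kcne4 levels in sham hearts were 6.49, 6.59 and 6.40 at day 3, 6.38, 6.50 and 6.14 at day 11 and 6.38, 6.38 and 6.35 at day 28. Kcne4 levels under TAC with vehicle were 6.52, 6.75 and 6.77 at day 3, 6.49, 6.43 and 6.26 at day 11 and 6.56, 6.57 and 6.77 at day 28. Kcne4 levels under TAC with JQ1 were 6.54, 6.57 and 6.36 at day 3, 6.26, 6.17 and 6.30 at day 11 and 6.44, 6.57 and 6.28 at day 28. At day 28 all 3 TAC arrays of Kcne4 lay above sham. Kcnab2, a cytosolic beta subunit of Kv1 channels, was lower with JQ1 on the mean of 3 days by 0.17 ± 0.06 (0.0382, lost without 10 of the 18 arrays), and Kcnab1 was not called (−0.09 ± 0.05 with TAC and −0.12 ± 0.05 with JQ1 on the mean).

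The inward rectifier genes Kcnj2, Kcnj3, Kcnj5, Kcnj11 and Kcnj12 fell with TAC, and Kcnj2 and Kcnj3 rose with JQ1. Of the 15 Kcnj genes 3 were called lower at day 3 and 5 at days 11 and 28, and 0 higher on any day, beside 3.33%, 7.73% and 6.98% of all genes called lower. Kcnj2 encodes Kir2.1, the main pore of the current that holds the resting potential. Kcnj2 levels in sham hearts were 9.14, 9.16 and 9.27 at day 3, 9.18, 9.25 and 9.26 at day 11 and 9.30, 9.09 and 9.25 at day 28. Kcnj2 levels under TAC with vehicle were 9.0, 8.70 and 8.85 at day 3, 8.63, 8.61 and 8.54 at day 11 and 8.57, 8.5 and 8.83 at day 28. Kcnj2 levels under TAC with JQ1 were 8.96, 9.20 and 8.82 at day 3, 9.29, 9.20 and 9.29 at day 11 and 8.98, 9.13 and 9.15 at day 28. The TAC vehicle arrays lay below all sham arrays at every day, and at days 11 and 28 every JQ1 array lay above every TAC vehicle array. Kcnj2 fell with TAC by 0.34 ± 0.10, 0.64 ± 0.10 and 0.58 ± 0.10 (adjusted p = 0.0282, 5.05e-05 and 0.000163), of which the call at day 3 was lost without sham replicate 2 or 3 or TAC replicate 2 or 3 (0.0508 to 0.242). With JQ1 it rose by 0.67 ± 0.10 at day 11 and 0.46 ± 0.10 at day 28 (4.15e-05 and 0.00136), against 0.14 ± 0.10 at day 3. The levels with TAC and JQ1 differed from sham by −0.20 ± 0.10, 0.03 ± 0.10 and −0.12 ± 0.10, none of them called.

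Kcnj12, the Kir2.2 pore of the same current, fell with TAC but was not called with JQ1. Kcnj12 levels in sham hearts were 7.55, 7.55 and 7.57 at day 3, 7.77, 7.68 and 7.61 at day 11 and 7.82, 7.62 and 7.53 at day 28. Kcnj12 levels under TAC with vehicle were 7.56, 7.42 and 7.45 at day 3, 7.25, 7.23 and 7.35 at day 11 and 7.23, 7.12 and 7.24 at day 28. Kcnj12 levels under TAC with JQ1 were 7.45, 7.59 and 7.36 at day 3, 7.31, 7.22 and 7.57 at day 11 and 7.11, 7.24 and 7.32 at day 28. At days 11 and 28 the TAC arrays lay below sham and the JQ1 arrays overlapped the TAC arrays. Kcnj12 fell with TAC by 0.41 ± 0.09 at day 11 and 0.46 ± 0.09 at day 28 (adjusted p = 0.00202 and 0.000743), and its JQ1 differences were −0.01 ± 0.09, 0.09 ± 0.09 and 0.03 ± 0.09. Kcnj14 (Kir2.4) rose with JQ1 at day 28 by 0.44 ± 0.15 (0.0436), a call lost without any array but TAC replicate 3 (0.0623 to 0.194). Kcnj14 levels in sham hearts were 6.35, 6.42 and 6.39 at day 3, 5.84, 6.23 and 6.40 at day 11 and 6.22, 6.28 and 6.28 at day 28. Kcnj14 levels under TAC with vehicle were 6.32, 6.16 and 6.47 at day 3, 6.17, 6.73 and 6.30 at day 11 and 5.95, 5.79 and 6.28 at day 28. Kcnj14 levels under TAC with JQ1 were 6.08, 6.67 and 6.55 at day 3, 6.15, 6.17 and 6.10 at day 11 and 6.37, 6.54 and 6.43 at day 28. At day 28 every JQ1 array of Kcnj14 lay above every TAC vehicle array. The TAC change of Kcnj14 was 0.24 ± 0.15 at day 11 and −0.25 ± 0.15 at day 28, neither called.

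The genes of the acetylcholine-gated channel fell together with TAC and parted with JQ1. Kcnj3 levels in sham hearts were 9.77, 9.82 and 9.95 at day 3, 9.96, 9.68 and 9.88 at day 11 and 10.08, 10.05 and 10.10 at day 28. Kcnj3 levels under TAC with vehicle were 9.46, 9.13 and 9.64 at day 3, 8.72, 8.66 and 8.46 at day 11 and 8.99, 9.15 and 8.94 at day 28. Kcnj3 levels under TAC with JQ1 were 9.26, 9.60 and 9.55 at day 3, 9.36, 9.72 and 9.63 at day 11 and 9.30, 9.61 and 9.48 at day 28. Kcnj3 was lower in every TAC vehicle array than in every sham array of its day, and at day 11 all JQ1 arrays lay far above the TAC arrays. Kcnj5 levels in sham hearts were 9.63, 9.70 and 9.68 at day 3, 9.66, 9.53 and 9.66 at day 11 and 9.79, 9.84 and 9.75 at day 28. Kcnj5 levels under TAC with vehicle were 9.42, 9.25 and 9.21 at day 3, 8.88, 8.86 and 8.92 at day 11 and 8.96, 9.13 and 9.08 at day 28. Kcnj5 levels under TAC with JQ1 were 8.45, 8.55 and 8.57 at day 3, 8.45, 8.63 and 8.68 at day 11 and 8.67, 8.68 and 8.54 at day 28. For Kcnj5 the 3 groups of a day stood in the order sham, TAC vehicle, TAC JQ1 from high to low at every day, with no overlap. Kcnj3 fell with TAC by 0.44 ± 0.12, 1.23 ± 0.12 and 1.05 ± 0.12 (adjusted p = 0.0271, 3.55e-07 and 3.46e-06), and the call at day 3 was lost without sham replicate 2 or 3 or TAC replicate 2 (0.0552 to 0.284). Kcnj5 fell with TAC by 0.38 ± 0.07, 0.73 ± 0.07 and 0.73 ± 0.07 (0.00184, 3.38e-07 and 5.86e-07), and the call at day 3 was lost in the fit to the 2 groups compared only (0.0713). The partners thus moved the same way with TAC. With JQ1 Kcnj3 changed by 0.06 ± 0.12 at day 3 and rose by 0.96 ± 0.12 at day 11 and 0.43 ± 0.12 at day 28 (0.857, 1.24e-05 and 0.0133), the last lost without TAC replicate 3 or TAC JQ1 replicate 2 (0.0587 to 0.0778). Kcnj5 fell with JQ1 by 0.77 ± 0.07, 0.30 ± 0.07 and 0.43 ± 0.07 (3.36e-07, 0.00535 and 0.000158), of which that at day 11 was lost without TAC JQ1 replicate 1 (0.0533). With TAC and JQ1, Kcnj5 was therefore 1.15 ± 0.07, 1.03 ± 0.07 and 1.16 ± 0.07 below sham, and Kcnj3 0.38 ± 0.12, 0.27 ± 0.12 and 0.61 ± 0.12 below it, the middle value of Kcnj3 not called and the call at day 3 lost without sham replicate 2 or 3 or TAC JQ1 replicate 1 (0.0609 to 0.195). Both genes are known for high expression in atria. Of the 6 atrial markers 0 were higher and 1 lower with TAC at day 3 and 1 higher and 1 lower at days 11 and 28. With JQ1 1 of them was higher at day 3 and 1 lower at days 11 and 28. The shares of all genes with TAC were 4.22%, 7.8% and 8.13% higher and 3.33%, 7.73% and 6.98% lower. With JQ1 these shares were 4.28%, 7.52% and 7.16% higher and 7.61%, 8.43% and 12.4% lower. The part of atrial tissue in the values of Kcnj3 and Kcnj5 was not tested.

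Among genes that act on this channel, Chrm2, the muscarinic receptor that opens it, was called lower with TAC at day 11 (−0.43 ± 0.09) and day 28 (−0.55 ± 0.09) and lower with JQ1 at day 3 (−0.50 ± 0.09). Rgs6, which shortens its opening, fell with TAC by 0.62 ± 0.14 at day 11 and 0.48 ± 0.14 at day 28. Gnao1, a G protein alpha subunit, rose with TAC at every day (0.55 ± 0.12, 0.88 ± 0.12 and 0.56 ± 0.12) and fell with JQ1 at days 11 and 28 (−0.54 ± 0.12 and −0.61 ± 0.12). Of the 10 such genes measured 2 were called higher and 0 lower with TAC at day 3, 5 and 2 at day 11, and 2 and 2 at day 28. Of all genes 4.22%, 7.8% and 8.13% were called higher and 3.33%, 7.73% and 6.98% lower.

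Kcnj11 encodes Kir6.2, the pore of the ATP-sensitive channel of the cardiomyocyte, and fell with TAC and with JQ1. Kcnj11 levels in sham hearts were 9.33, 9.20 and 9.35 at day 3, 9.29, 9.39 and 9.39 at day 11 and 9.43, 9.41 and 9.42 at day 28. Kcnj11 levels under TAC with vehicle were 9.24, 9.01 and 9.09 at day 3, 8.88, 8.78 and 8.86 at day 11 and 8.86, 8.93 and 8.86 at day 28. Kcnj11 levels under TAC with JQ1 were 8.59, 8.83 and 8.75 at day 3, 8.88, 8.74 and 8.84 at day 11 and 8.61, 8.70 and 8.65 at day 28. The TAC arrays lay below sham at days 11 and 28, and the JQ1 arrays below TAC vehicle at days 3 and 28. The fall of Kcnj11 with TAC was 0.52 ± 0.07 at day 11 and 0.54 ± 0.07 at day 28 (adjusted p = 1.51e-05 and 1.24e-05), and −0.18 ± 0.07 at day 3 was not called. With JQ1 it fell by 0.39 ± 0.07 at day 3 (0.00051) and 0.23 ± 0.07 at day 28 (0.0203, lost without TAC replicate 2 or TAC JQ1 replicate 1 at 0.0726 to 0.0784), with −0.02 ± 0.07 at day 11. Its regulatory receptor genes fell with TAC too: Abcc9 (SUR2) by 0.41 ± 0.11, 0.55 ± 0.11 and 0.59 ± 0.11 at the 3 days and Abcc8 (SUR1) by 0.29 ± 0.09 at day 11 and 0.35 ± 0.09 at day 28. Abcc8 was called higher with JQ1 at day 11, by 0.28 ± 0.09, and Abcc9 was not called with JQ1. Kcnj8 (Kir6.1), the pore of the vascular form of this channel, was not called in any comparison. Kcnj8 levels in sham hearts were 10.32, 10.40 and 10.33 at day 3, 10.32, 10.32 and 10.27 at day 11 and 10.19, 10.25 and 10.37 at day 28. Kcnj8 levels under TAC with vehicle were 10.27, 10.01 and 10.18 at day 3, 10.33, 10.40 and 10.21 at day 11 and 10.33, 10.44 and 10.17 at day 28. Kcnj8 levels under TAC with JQ1 were 10.12, 10.28 and 10.35 at day 3, 10.22, 10.45 and 10.49 at day 11 and 10.81, 10.37 and 10.40 at day 28. The TAC arrays of Kcnj8 lay below sham at day 3 and overlapped it later. Its TAC changes were −0.20 ± 0.10, 0.01 ± 0.10 and 0.05 ± 0.10 and its JQ1 differences 0.10 ± 0.10, 0.08 ± 0.10 and 0.21 ± 0.10. Kcnj15 (Kir4.2) was lower with JQ1 by 0.36 ± 0.12 at day 11 (0.0367, lost without any TAC array or TAC JQ1 replicate 1 or 2 at 0.0604 to 0.132) and 0.49 ± 0.12 at day 28 (0.00412). Kcnj15 levels in sham hearts were 6.81, 6.72 and 6.72 at day 3, 6.69, 6.63 and 6.29 at day 11 and 6.63, 6.61 and 6.69 at day 28. Kcnj15 levels under TAC with vehicle were 6.62, 6.62 and 6.54 at day 3, 6.73, 6.80 and 6.86 at day 11 and 7.09, 6.58 and 7.16 at day 28. Kcnj15 levels under TAC with JQ1 were 6.28, 6.53 and 6.66 at day 3, 6.36, 6.42 and 6.52 at day 11 and 6.43, 6.44 and 6.48 at day 28. The JQ1 arrays of Kcnj15 lay below all TAC arrays on both of these days.

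Of the well expressed 2-pore genes Kcnk3 fell and Kcnk6 rose with TAC. Kcnk3 encodes TASK-1, an acid-sensitive background channel. Kcnk3 levels in sham hearts were 9.66, 9.84 and 9.75 at day 3, 9.95, 9.88 and 9.91 at day 11 and 9.86, 9.95 and 9.99 at day 28. Kcnk3 levels under TAC with vehicle were 9.75, 9.55 and 9.76 at day 3, 9.54, 9.56 and 9.58 at day 11 and 9.30, 9.45 and 9.36 at day 28. Kcnk3 levels under TAC with JQ1 were 9.71, 9.73 and 9.78 at day 3, 9.79, 9.92 and 9.74 at day 11 and 8.97, 9.32 and 9.43 at day 28. The TAC arrays of Kcnk3 overlapped sham at day 3 and lay below it at days 11 and 28. Kcnk3 fell with TAC by 0.35 ± 0.09 at day 11 and 0.57 ± 0.09 at day 28 (adjusted p = 0.00669 and 0.0001), and its only JQ1 call, 0.26 ± 0.09 at day 11 (0.0499), was lost without any 1 of the 6 arrays (0.0519 to 0.213). Kcnk6 encodes TWIK-2, a background channel of vessels and leukocytes. Kcnk6 levels in sham hearts were 8.36, 8.30 and 8.11 at day 3, 8.21, 8.26 and 8.27 at day 11 and 8.24, 8.24 and 8.07 at day 28. Kcnk6 levels under TAC with vehicle were 8.38, 8.41 and 8.58 at day 3, 8.32, 8.46 and 8.56 at day 11 and 8.37, 8.66 and 8.59 at day 28. Kcnk6 levels under TAC with JQ1 were 8.03, 8.02 and 8.06 at day 3, 7.88, 7.78 and 7.94 at day 11 and 8.31, 8.15 and 8.08 at day 28. The TAC vehicle arrays were the highest of each day, and all JQ1 arrays lay below all TAC vehicle arrays. Kcnk6 rose with TAC at day 28 by 0.36 ± 0.09 (adjusted p = 0.00594) and fell with JQ1 by 0.42 ± 0.09, 0.58 ± 0.09 and 0.36 ± 0.09 at the 3 days (0.00236, 6.39e-05 and 0.00452), and all of these calls were kept without each array. In the fit to the 2 groups compared only, the JQ1 calls of Kcnk6 at days 3 and 28 were lost (adjusted p = 0.0525 and 0.0567). Kcnk2 (TREK-1), a stretch-activated channel, fell with JQ1 at day 11 by 0.55 ± 0.13 (0.00525). Kcnk2 levels in sham hearts were 6.68, 6.76 and 6.66 at day 3, 6.75, 6.67 and 6.58 at day 11 and 6.81, 6.67 and 6.71 at day 28. Kcnk2 levels under TAC with vehicle were 6.81, 6.62 and 6.58 at day 3, 6.69, 7.07 and 7.04 at day 11 and 6.85, 6.78 and 6.66 at day 28. Kcnk2 levels under TAC with JQ1 were 6.01, 6.51 and 6.71 at day 3, 6.48, 6.24 and 6.42 at day 11 and 6.62, 6.64 and 6.30 at day 28. The highest arrays of Kcnk2 were TAC replicates 2 and 3 of day 11. Kcnk1 (TWIK-1) was not called, with −0.13 ± 0.06 for TAC and 0.05 ± 0.06 for JQ1 on the mean of 3 days.

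Markers of other cells moved in part as Kcnk6 did. Of 8 macrophage markers 3, 7 and 7 were called higher with TAC at days 3, 11 and 28 and 0 lower, and 5, 5 and 4 were called lower with JQ1 and 0 higher. Their mean level in single arrays was 8.83 to 8.94 in sham, 9.72 to 10.04 with TAC and 9.36 to 9.75 with TAC and JQ1 at day 28. Of 8 endothelial markers 0, 3 and 1 were called higher with TAC, and 2, 2 and 5 lower with JQ1. Of 7 fibroblast markers 2, 5 and 7 were called higher with TAC at the 3 days, and 3, 4 and 4 lower with JQ1. The shares of all genes were 4.22%, 7.8% and 8.13% higher with TAC and 7.61%, 8.43% and 12.4% lower with JQ1. Compared with sham, Kcnk6 was called lower with TAC and JQ1 at day 11 (−0.42 to −0.34 over the alternatives). Of the macrophage markers 2 were higher and 0 lower in that comparison, beside 5.01% and 5.51% of all genes. The part of these cells in the result for Kcnk6 was not tested.

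**Figure D4:**
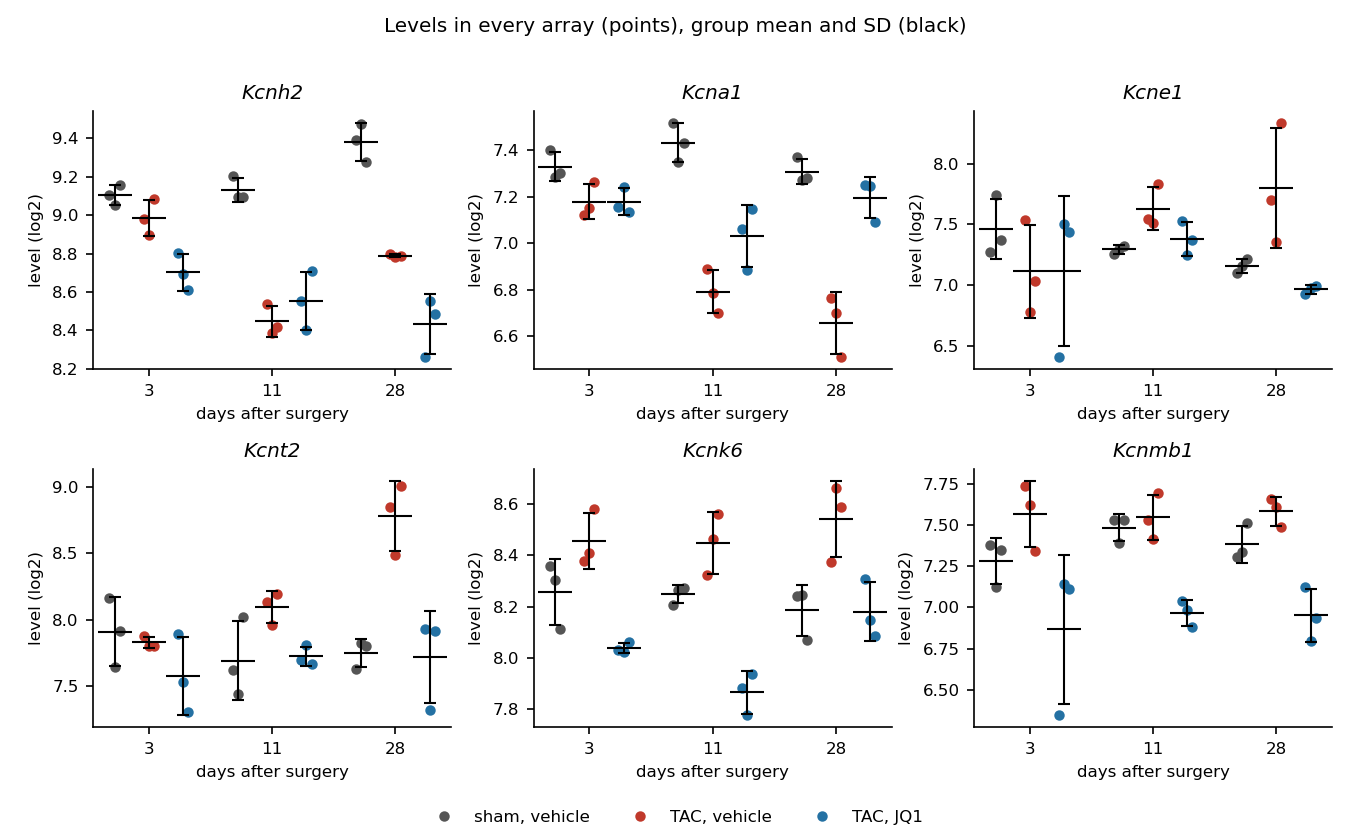
Levels on the log2 scale in every array (points), with the group mean and SD (black), for the delayed rectifier gene Kcnh2, the Kv1 gene Kcna1, the accessory genes Kcne1 and Kcnmb1, the sodium-activated gene Kcnt2 and the 2-pore gene Kcnk6, by days after surgery. Kcnt2 is high in the 3 TAC vehicle arrays of day 28, and the JQ1 arrays (blue) of Kcnk6 and Kcnmb1 lie below TAC vehicle (red) at every day.

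Among the calcium-activated and sodium-activated channels Kcnn1 and Kcnn2 fell with TAC and Kcnt2 rose. Kcnn2 encodes SK2, a small-conductance calcium-activated channel. Kcnn2 levels in sham hearts were 8.13, 7.97 and 8.13 at day 3, 7.98, 7.88 and 8.2 at day 11 and 7.97, 8.17 and 8.04 at day 28. Kcnn2 levels under TAC with vehicle were 7.69, 7.58 and 7.73 at day 3, 7.41, 7.30 and 7.40 at day 11 and 7.44, 7.93 and 7.65 at day 28. Kcnn2 levels under TAC with JQ1 were 7.18, 7.49 and 7.46 at day 3, 7.48, 7.58 and 7.51 at day 11 and 7.23, 7.36 and 7.51 at day 28. The TAC vehicle arrays of Kcnn2 lay below sham at every day. Kcnn2 fell with TAC by 0.41 ± 0.11, 0.65 ± 0.11 and 0.38 ± 0.11 (adjusted p = 0.0195, 0.00015 and 0.0158). The call at day 3 was lost without sham replicate 1 or 3 or TAC replicate 2 (0.0713 to 0.14) and that at day 28 without sham replicate 2 or TAC replicate 1 or 3 (0.0607 to 0.117). With JQ1 it was lower at day 28 by 0.31 ± 0.11 (0.0466), with overlapping groups and a call lost without TAC replicate 2 or 3 or TAC JQ1 replicate 1 or 2 (0.0872 to 0.273).

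Kcnn1 (SK1) had small falls with TAC at days 11 and 28. Kcnn1 levels in sham hearts were 7.76, 7.89 and 7.77 at day 3, 7.90, 7.89 and 7.74 at day 11 and 7.91, 7.84 and 7.74 at day 28. Kcnn1 levels under TAC with vehicle were 7.59, 7.49 and 7.66 at day 3, 7.58, 7.66 and 7.53 at day 11 and 7.62, 7.69 and 7.46 at day 28. Kcnn1 levels under TAC with JQ1 were 7.42, 7.74 and 7.57 at day 3, 7.62, 7.67 and 7.61 at day 11 and 7.41, 7.57 and 7.43 at day 28. All TAC vehicle arrays of Kcnn1 lay below sham at each day. The change was −0.23 ± 0.08 at day 3, −0.25 ± 0.08 at day 11 and −0.24 ± 0.08 at day 28 (adjusted p = 0.0966, 0.0355 and 0.0417), and each of the calls was lost without sham replicate 1 or 2 or TAC replicate 1 or 3 (0.0924 to 0.138 and 0.0725 to 0.244). Kcnn3 (SK3) was not called (0.12 ± 0.07 with TAC and −0.03 ± 0.07 with JQ1 on the mean). Kcnn4, the intermediate-conductance channel of leukocytes and fibroblasts, fell with JQ1 at day 3 by 0.26 ± 0.08 (0.0323), a call lost without any array but TAC JQ1 replicate 3 (0.0506 to 0.203). Kcnn4 levels in sham hearts were 6.87, 6.97 and 6.88 at day 3, 6.85, 6.92 and 6.70 at day 11 and 6.87, 6.77 and 6.84 at day 28. Kcnn4 levels under TAC with vehicle were 7.02, 7.07 and 7.11 at day 3, 6.91, 7.03 and 6.78 at day 11 and 6.89, 6.89 and 6.84 at day 28. Kcnn4 levels under TAC with JQ1 were 6.65, 6.84 and 6.92 at day 3, 6.62, 6.72 and 6.89 at day 11 and 7.01, 6.91 and 6.89 at day 28. The JQ1 arrays of Kcnn4 lay below TAC vehicle at day 3 and overlapped it at days 11 and 28.

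Kcnt2 encodes SLICK, a sodium-activated channel, and had the largest rise called with TAC among the potassium channel genes. Kcnt2 levels in sham hearts were 8.16, 7.65 and 7.92 at day 3, 7.62, 7.44 and 8.02 at day 11 and 7.63, 7.82 and 7.80 at day 28. Kcnt2 levels under TAC with vehicle were 7.88, 7.81 and 7.81 at day 3, 8.13, 7.96 and 8.19 at day 11 and 8.85, 8.49 and 9.0 at day 28. Kcnt2 levels under TAC with JQ1 were 7.89, 7.54 and 7.31 at day 3, 7.70, 7.81 and 7.67 at day 11 and 7.93, 7.32 and 7.91 at day 28. The 3 TAC vehicle arrays of day 28 were the highest of all 27. Kcnt2 rose by 1.03 ± 0.17 at day 28 (2.04-fold, adjusted p = 0.000178), after changes of −0.08 ± 0.17 at day 3 and 0.40 ± 0.17 at day 11 that were not called. With JQ1 it fell by 1.06 ± 0.17 at day 28 (9.86e-05), to a level −0.03 ± 0.17 from sham, and both calls were kept without each array. Fibroblast markers moved in the same groups at day 28: 7 of 7 were called higher with TAC and 4 lower with JQ1. Their mean levels in single arrays were 8.90 to 8.96 in sham, 9.51 to 10.15 with TAC and 9.16 to 9.49 with TAC and JQ1. At days 3 and 11, where Kcnt2 was not called, 2 and 5 were higher with TAC and 3 and 4 lower with JQ1. Compared with sham, 3 were still higher with TAC and JQ1 at day 28. Of 8 macrophage markers 7 were called higher with TAC and 4 lower with JQ1 at day 28, beside 8.13% and 12.4% of all genes. The part of these cells in the change of Kcnt2 was not tested.

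Kcnmb1, the beta-1 subunit that makes the large-conductance channel of smooth muscle more sensitive to calcium, fell with JQ1 at every day. Kcnmb1 levels in sham hearts were 7.38, 7.12 and 7.35 at day 3, 7.53, 7.39 and 7.53 at day 11 and 7.30, 7.34 and 7.51 at day 28. Kcnmb1 levels under TAC with vehicle were 7.74, 7.62 and 7.34 at day 3, 7.53, 7.42 and 7.69 at day 11 and 7.66, 7.61 and 7.49 at day 28. Kcnmb1 levels under TAC with JQ1 were 6.34, 7.14 and 7.11 at day 3, 7.04, 6.98 and 6.88 at day 11 and 7.12, 6.80 and 6.94 at day 28. All JQ1 arrays lay below all TAC vehicle arrays of their day, and TAC and sham overlapped at every day. The JQ1 difference was −0.70 ± 0.15 at day 3, −0.58 ± 0.15 at day 11 and −0.63 ± 0.15 at day 28 (adjusted p = 0.00268, 0.00891 and 0.00361), and −0.44 at day 3 without TAC JQ1 replicate 1. The TAC changes were 0.28 ± 0.15, 0.06 ± 0.15 and 0.20 ± 0.15, none of them called. Of 8 smooth muscle and pericyte markers 0 were called lower with JQ1 at day 3, 1 at day 11 and 4 at day 28 and 0, 1 and 0 higher. The shares of all genes were 7.61%, 8.43% and 12.4% lower and 4.28%, 7.52% and 7.16% higher. The part of smooth muscle cells and pericytes in the change of Kcnmb1 was not tested. Kcnma1, the pore of that channel, was higher with TAC at day 28 by 0.52 ± 0.16 (adjusted p = 0.0338), a call lost without any array but TAC replicate 2 (0.0584 to 0.231). Its second probe set changed by −0.17 ± 0.24, and with the mean of both the adjusted p was 0.52. Kcnma1 levels in sham hearts were 5.6, 6.01 and 5.80 at day 3, 5.80, 5.78 and 5.65 at day 11 and 5.87, 5.76 and 5.73 at day 28. Kcnma1 levels under TAC with vehicle were 5.76, 5.64 and 5.65 at day 3, 6.26, 6.23 and 5.86 at day 11 and 6.54, 5.76 and 6.60 at day 28. Kcnma1 levels under TAC with JQ1 were 5.46, 5.81 and 5.97 at day 3, 5.82, 5.71 and 5.76 at day 11 and 5.87, 6.08 and 5.74 at day 28. TAC replicate 2 of day 28 lay within the sham arrays, and without it the difference of Kcnma1 was 0.79.

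Kcnrg, which encodes a regulator that keeps Kv subunits from the membrane, rose with JQ1. Kcnrg levels in sham hearts were 6.08, 6.24 and 6.44 at day 3, 6.43, 6.41 and 6.38 at day 11 and 6.37, 6.33 and 6.33 at day 28. Kcnrg levels under TAC with vehicle were 6.25, 6.08 and 6.29 at day 3, 6.21, 6.33 and 6.28 at day 11 and 6.06, 6.29 and 6.23 at day 28. Kcnrg levels under TAC with JQ1 were 6.74, 6.45 and 6.39 at day 3, 6.46, 6.41 and 6.51 at day 11 and 6.47, 6.43 and 6.46 at day 28. The JQ1 arrays of Kcnrg lay above TAC vehicle at every day. The JQ1 difference was 0.32 ± 0.09 at day 3, 0.18 ± 0.09 at day 11 and 0.26 ± 0.09 at day 28 (adjusted p = 0.0197, 0.176 and 0.0438) and 0.25 ± 0.05 on the mean (0.00045). The call at day 3 was lost without TAC replicate 2 or TAC JQ1 replicate 1 (0.119 to 0.162), and that at day 28 without any array but TAC replicate 2 (0.0696 to 0.171).

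The TAC effect differed between days for 5 of the 92 genes (moderated F test of limma, 1.31% of all genes called). These were Kcng2 (adjusted p = 0.023), Kcna1 (0.0261), Kcnh2 (0.027), Kcnj3 (0.035) and Kcnt2 (0.0446), each with its smallest change in size at day 3. For Kcng2 and Kcnt2 the change at day 3 was of the other sign, for Kcnt2 within its standard error. The JQ1 effect differed between days for 3 genes (1.07% of all genes called), Kcnj3 (0.0297), Kcna1 (0.0441) and Kcnj5 (0.0446), with Kcnj5 falling most at day 3 and Kcnj3 rising most at day 11. These counts rested on few arrays: without 1 array they ranged from 0 to 7 for TAC and from 0 to 4 for JQ1, and they were 0 for TAC without TAC replicate 3 of day 3 or sham replicate 2 of day 28. For JQ1 they were 0 without TAC replicate 3 of day 3, TAC replicate 2 or 3 or TAC JQ1 replicate 2 of day 11, or TAC replicate 1 of day 28. The sham level differed between days for 0 genes (limma, 5 at an unadjusted p under 0.05, and 0.0652% of all genes called).

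Compared with sham, hearts with TAC and JQ1 had 9 potassium channel genes lower and 2 higher at day 3, 12 lower and 0 higher at day 11 and 16 lower and 0 higher at day 28 (17.6%, 10.5% and 19.9% of all genes were called). Called lower were 10.7%, 5.51% and 12.6% of all genes and called higher 6.94%, 5.01% and 7.36%. Of the 13 well expressed genes 6, 5 and 8 were lower and 1, 0 and 0 higher, beside calls for 30.7%, 16.8% and 37.5% of all genes with a mean above 8. The genes that were higher at day 3 were Kcng2 (0.28 ± 0.08, 0.0768 without sham replicate 1) and Kcnrg (0.27 ± 0.09, 0.0844 to 0.263 without sham replicate 1 or 2 or TAC JQ1 replicate 1). This comparison shares its sham arrays with that of TAC and its JQ1 arrays with that of JQ1. Kcnv2, Kcnj5, Kcnip2, Kcnh2, Kcnj11, Kcnn2 and Kcnd3 were lower at every day (2.93% of all genes were). Kcnv2 differed from sham by −1.39 ± 0.12, −1.35 ± 0.12 and −1.38 ± 0.12, and Kcnip2 by −1.34 ± 0.19, −0.66 ± 0.19 and −0.97 ± 0.19. Kcnh2 was −0.40 ± 0.08, −0.58 ± 0.08 and −0.95 ± 0.08 from sham and Kcnj11 −0.57 ± 0.07, −0.54 ± 0.07 and −0.77 ± 0.07. Kcnd2 was lower at day 3 (−0.92 ± 0.20, and −0.54 without TAC JQ1 replicate 1) and day 28 (−0.61 ± 0.20) and not called at day 11 (−0.30 ± 0.20). Kcna1 was called lower at day 11 alone (−0.40 ± 0.08) and Kcnk3 at day 28 alone (−0.69 ± 0.09). Of the calls against sham 7 of 11, 8 of 12 and 13 of 16 were kept without each array, and 6, 8 and 13 under every alternative. Among those lost were Kcnip2 at day 11 (0.0531 to 0.0786, any array but TAC JQ1 replicate 3), Kcnd2 at day 28 (0.0599 to 0.126, any array but TAC JQ1 replicate 2) and Kcnd3 at day 3 (0.127 to 0.142, sham replicate 1 or TAC JQ1 replicate 2 or 3, and a value of −0.59 without TAC JQ1 replicate 1).

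Of 37 other genes that regulate, anchor or traffic these channels, 3 were called higher and 3 lower with TAC at day 3, 8 and 11 at day 11, and 2 and 8 at day 28. With JQ1 2 were higher and 3 lower at day 3, 3 and 6 at day 11, and 0 and 5 at day 28. Of all genes 4.22%, 7.8% and 8.13% were called higher with TAC at the 3 days and 3.33%, 7.73% and 6.98% lower. With JQ1 4.28%, 7.52% and 7.16% of all genes were called higher and 7.61%, 8.43% and 12.4% lower. Of the 15 anchoring and trafficking genes 2, 5 and 4 were called lower with TAC at the 3 days and 0, 1 and 0 higher. Rnf207, a ligase that promotes the ERG1 protein, fell with TAC at day 3 by 0.38 ± 0.09 and at day 11 by 0.59 ± 0.09, and with JQ1 at day 3 by 0.41 ± 0.09 and at day 28 by 0.40 ± 0.09. The ankyrin gene Ank2 fell with TAC by 0.43 ± 0.10 at day 28 and the anchoring gene Akap7 by 0.41 ± 0.08 at day 3. Irx5, a repressor of Kcnd2, rose with JQ1 by 0.35 ± 0.11 at day 3 and 0.49 ± 0.11 at day 11. Kcnd2 differed from TAC vehicle on these days by −0.24 and 0.58. With TAC, where Kcnd2 fell, Irx5 and the related Irx3 were both called lower on the mean of 3 days, and 1 of them at day 11. The part of these factors in the changes of Kcnd2 was not tested. Dpp6 and Dpp10, further partners of Kv4 pores, were not called in any TAC or JQ1 comparison, with changes at single days between −0.23 and 0.21.

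The other 55 of the 92 genes were called in no TAC or JQ1 comparison of a day or of the mean of 3 days. The share of all genes called in none of these was not counted. Among them were 8 of the 10 Kcnh and Kcnq genes, 11 of the 14 Kcnk genes and 8 of the 15 Kcnj genes, and Kcnj8 was the only one of the 55 that was well expressed. Over the 79 genes below the level of 8 the JQ1 difference at day 28 was above 0 for 60. Its median was 0.15 against 0.06 over all genes. Of these 79, 7 were called higher and 6 lower, beside 7.16% and 12.4% of all genes. The TAC change of day 28 was below 0 for 63 of them, with a median of −0.13 against −0.05 over all genes. With TAC 2 of the 79 were called higher and 8 lower, beside 8.13% and 6.98% of all genes. These comparisons share the TAC vehicle arrays of day 28. All genes include those with a mean above 8, and shares and medians over genes below 8 alone were not computed.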

How the data were processed

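RNA of 27 heart samples was measured on Affymetrix whole-transcript arrays, labelled per the labels' protocols with the Ambion WT Expression Kit. The table deposited by the authors holds log2 values of 34760 probe sets, and its normalization and summarization are not given in the sources used here. The submitters' processing notes name limma without a role. Genes came from the platform annotation: 21640 probe sets name 1 gene, 1321 several and 11799 none, and each of 19937 genes was read by its brightest probe set on average.

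A model with 9 group means was fitted to all genes (limma 3.58.1, R 4.3.3, 18 residual degrees of freedom, median residual SD 0.127), with Benjamini-Hochberg adjustment over all genes and calls at an adjusted p under 0.05. Fold is 2 to the power of the log2 difference. The labels do not say that replicate numbers pair the arrays, and the main fit took them as unpaired. Of 27 correlations of same-numbered deviations from the group mean, 7 were over 0.1 (range −0.46 to 0.50). At day 11 replicates 2 and 3 gave 0.43 and 0.50 for sham with TAC, and −0.19 and −0.46 for TAC with TAC JQ1. These correlations do not settle whether some same-numbered arrays share a batch.

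Genes were named when they were well expressed, called with TAC or JQ1 on a day or on the mean, next to the level of 8, or in a fixed list of cardiac current genes. Levels in every array are given for the called genes of that list and for the 6 per direction with the smallest adjusted p on the mean of 3 days. The members and the lists were chosen with earlier results of these data known. Alternatives were a further quantile normalization, median centring, leaving out the dimmest genes, averaging probe sets per gene, another variance prior, array weights, a replicate block, fits to the groups compared only, and leaving out each array.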

Additional observations from a re-analysis of the deposited data

Results flagged for a closer look

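For 6 genes an effect differed between days by a moderated F test of limma over 19937 genes. The TAC effect differed for Kcng2 (adjusted p = 0.023), Kcna1 (0.0261), Kcnh2 (0.027), Kcnj3 (0.035) and Kcnt2 (0.0446). The JQ1 effect differed for Kcnj3 (0.0297), Kcna1 (0.0441) and Kcnj5 (0.0446). That is 5 of the 92 genes for TAC and 3 for JQ1, beside 1.31% and 1.07% of all genes. Without 1 array between 0 and 7 genes were called for TAC and between 0 and 4 for JQ1. For JQ1 the replicate block gave 0 genes, and so did the fit to the groups compared only.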

How the results depend on the processing

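Of 2983 values of single genes under an alternative, 2619 kept their call, 364 lost it and 0 turned their sign. The loss was under a fit to the groups compared only in 46 of 172, and without 1 array in 272 of 1620. Array weights raised the counts of genes called from 7 to 11 (TAC, day 3), from 11 to 26 (JQ1, day 11), from 11 to 18 and 12 to 25 (TAC JQ1 against sham, days 3 and 11), from 5 to 12 (TAC effect by day), from 3 to 18 (JQ1 effect by day) and from 0 to 6 (sham level by day). Fits to the groups compared only gave 2 (TAC, day 3), 1 and 11 (JQ1, days 3 and 28), 6 (TAC JQ1 against sham, day 3) and 0 (JQ1 effect by day). Without the dimmest genes, and with a trended robust prior, 8 genes had a TAC effect that differed by day, and a further quantile normalization left 1 for JQ1. Leaving out 1 array gave 2 to 8 (TAC, day 3), 13 to 17 (day 11) and 14 to 19 (day 28), 5 to 8, 5 to 8 and 13 to 26 (JQ1, days 3, 11 and 28), 8 to 13, 8 to 11 and 13 to 18 (TAC JQ1 against sham), 20 to 26 and 21 to 27 (means of 3 days for TAC and JQ1), and 0 to 7 and 0 to 4 (effects of TAC and JQ1 by day). With a mean above 7.5 as the threshold, 21 genes were well expressed in place of 13. The causes of these differences were not tested.

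The replicate block within day gave 5, 16 and 19 genes for TAC, 9, 9 and 20 for JQ1, 12, 11 and 15 for TAC JQ1 against sham, 23 and 21 for the means of 3 days, 4 for the TAC effect by day and 0 for the JQ1 effect by day, where 3 were called without it. It lost the calls of 16 of 172 single values, and it could not be run for the sham level by day. With 3 arrays per group, and probe sets that differ in response, small changes at dim signals are measured poorly.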
